A study of Mus musculus with 6 samples.

Results

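Clotting and its reversal were followed here through 9 genes of a mouse mRNA-seq experiment on cultured bone marrow cells. F3, F7 and F10 start clotting, Thbd restrains it, and F13a1 cross-links the clot. Plau and Plat encode enzymes that turn plasminogen into plasmin, and Plaur encodes the receptor that holds the Plau product. Thbs1 encodes a matrix protein that binds the clot and the cells around it. The 9 genes were the rows of the count table whose Ensembl IDs map to the 9 symbols, 9 of 21965 genes. All 9 were among the 14792 genes kept by a minimum total of 10 counts. They were chosen by their difference between CAP and air in these same libraries, so their values are a description and carry no test.

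The study compared endothelial progenitor cells (EPCs) grown from the bone marrow of male C57BL/6J mice, given as C57BL/6 in the labels. Of these, 3 mice breathed concentrated ambient particles (CAP), fine outdoor particles enriched before delivery, at a mean of 67 µg/m3, and 3 breathed filtered air, each for 6 h per day on 30 days. The mice arrived when 11 weeks old and were acclimated for 1 week. Marrow was taken after the last exposure, and no particles were described in the culture medium. The culture time is 12 days in the labels and 10 days in the methods text. The 3 mice of a group shared 1 cage, so cage and exposure cannot be told apart.

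Tissue factor, the product of F3, sits on cell surfaces and binds factor VII when blood leaves a vessel; the pair activates factor X, which makes thrombin, which in turn makes fibrin. Factor XIII then welds fibrin strands to one another and to fibronectin, and plasmin, made from plasminogen by urokinase and by tissue plasminogen activator, later dissolves the clot. Most soluble clotting factors are made in the liver, whereas macrophages are a known source of factor XIII A subunit, urokinase and its receptor.

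The libraries held between 28713206 and 30446171 counts, and each level below is a normalized count, the count divided by its library's relative log expression (RLE) size factor. By edgeR's quasi-likelihood test with Benjamini-Hochberg adjustment, 0 of the 14792 genes passed an adjusted p of 0.05 between CAP and air, whereas 871 genes were higher and 693 lower in CAP at an unadjusted p under 0.05, and DESeq2 called 22 higher and 2 lower. The study's own DESeq2 analysis reported more genes in both directions. In 63.4% of all tested genes, CAP replicate 2 had either the highest or the lowest value. In these cultures labelled as EPCs, the 10 macrophage markers summed to 444987 to 543045 normalized counts in CAP and 602975 to 640069 in air, most of it Lyz2. The 10 stromal markers summed to 69031 to 138909 in CAP and 137240 to 206005 in air. The 10 endothelial markers summed to only 2622 to 3301 in CAP and 2731 to 5105 in air. The lists hold unlike genes and lengths were not adjusted, so the sums cannot decide what the cells are. These are bulk cultures, in which fewer cells of a type and less RNA per cell cannot be told apart.

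Of the 9 genes, 5 had a positive and 4 a negative log2 difference, CAP minus air, with a median of 0.17. In Plaur and Thbs1 every CAP library exceeded every air library, an arrangement that 8.44% of all tested genes shared. In F13a1 and Plau every CAP library was below every air library, as in 8.46% of all tested genes. None of the 9 was called by edgeR, which called 0% of all genes, or by DESeq2, which called 0.162%. Because the difference between the groups chose the genes, nothing is read from these counts.

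**Figure D1:**
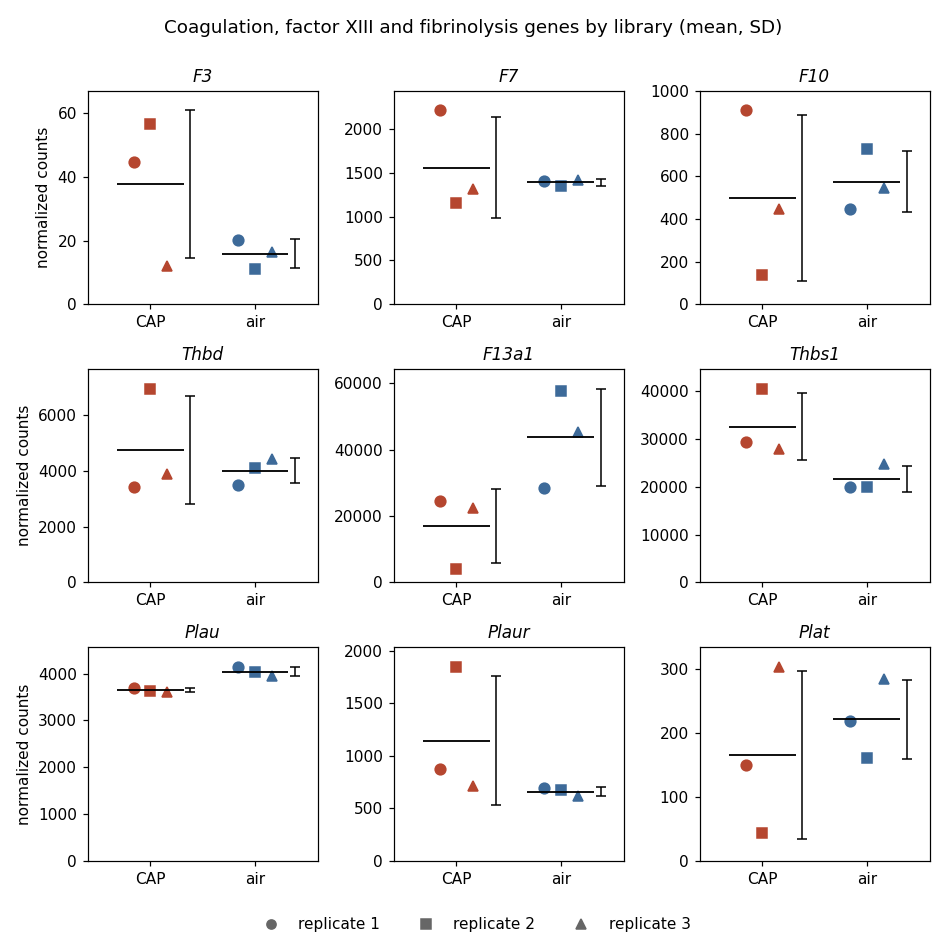
Normalized counts of the 9 genes, 1 panel per gene, with the CAP libraries left and the air libraries right. Points are the 3 libraries of each group, horizontal lines are means and bars are 1 SD. CAP replicate 2 (square) was the lowest library in F13a1 at 4117 and the highest in Plaur at 1848.

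F13a1 encodes the catalytic A subunit of factor XIII, a transglutaminase. It had 24524, 4117 and 22356 normalized counts in CAP replicates 1 to 3, against 28469.9, 57610.0 and 45205 in air replicates 1 to 3. Every CAP library was below every air library, and the lowest air library stood close to the highest CAP library. The means were 16999 ± 11209 in CAP and 43762 ± 14624 in air (SD, n = 3 each), a CAP to air ratio of 0.388. The log2 difference was -1.36 (standard error 0.56), which became -0.91 without CAP replicate 2. F13a1 took 0.0143% to 0.0847% of all counts in the CAP libraries and 0.0976% to 0.197% in the air libraries.

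The summed macrophage markers and the summed platelet markers were lower in every CAP library than in any air library. Single markers mostly overlapped. All CAP libraries were below air in 2 of the 10 macrophage and 3 of the 10 platelet markers, and above in 1 macrophage marker. These arrangements were shared by 8.46% and 8.44% of all tested genes. Of the 10 endothelial and the 10 stromal markers, 8 each were negative too. Set against the macrophage markers, F13a1 stood at 45.2, 9.25 and 44.4 per 1000 of their normalized counts in CAP replicates 1 to 3 and at 47.2, 90.0 and 72.1 in air replicates 1 to 3. All CAP values were still below all air values on this scale, the nearest at 45.2 and 47.2. Most of the marker sum was Lyz2, at 282568 to 297193 normalized counts in CAP and 357985 to 377406 in air. Of the 10 macrophage markers 8 were negative, none was at 0 in all libraries, and DESeq2 called 1, Fcgr1, higher in CAP. Megakaryocytes and platelets also hold the factor XIII A subunit, and the 10 platelet markers summed to 3217 to 7130 normalized counts in CAP and 9009.6 to 10871 in air, none of them at 0 throughout. Most of that sum was Pf4, a platelet chemokine, at 5669.7, 2516 and 5869 in CAP and 7926, 9525 and 9408 in air. The study listed Pf4 as downregulated by its own DESeq2 analysis, whereas DESeq2 as run here gave an adjusted p of 0.139. Itga2b, the platelet integrin subunit, was at 349.8 to 505 in CAP and 419 to 452 in air. The part of these cells in the F13a1 values was not tested.

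The gene of the B subunit, F13b, which carries the A subunit in plasma, had 0 counts in all 6 libraries, which allows up to 3 counts in each. Tgm2, the tissue transglutaminase, had 7959, 8252 and 11172 normalized counts in CAP and 9663, 9077 and 13501 in air, and its log2 difference was -0.24 (standard error 0.19; adjusted p = 0.632 by edgeR). Per kilobase of exon, F13a1 was at 2.11, 0.341 and 1.37 times the level of Tgm2 in CAP and at 2.01, 4.34 and 2.29 times in air, so that the groups overlapped in this ratio. Tgm1, the transglutaminase of keratinocytes, was at 60.8 to 158 in CAP and 104 to 136 in air. Of the 7 other transglutaminases 3 could be tested, and 0 passed.

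Thbs1 encodes thrombospondin-1, a matricellular protein of platelets, macrophages and fibroblasts that binds fibrinogen, plasminogen and CD36. It was at 29286, 40490.1 and 27817 normalized counts in CAP replicates 1 to 3, against 19999.8, 20019 and 24633 in air replicates 1 to 3. All CAP libraries were above all air libraries, with CAP replicate 2 the highest. The mean was 32531 ± 6932 in CAP and 21551 ± 2669 in air (SD, n = 3 each), a ratio of 1.51. The log2 difference of 0.59 (standard error 0.18) remained positive without each library in turn, between 0.40 and 0.70.

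Thbs2, its closest relative among the genes listed here, did not follow the same order, with 46031, 25349.8 and 61163 normalized counts in CAP and 45694, 43734 and 57674 in air. Per kilobase, Thbs1 stood at 0.734, 1.84 and 0.524 times the level of Thbs2 in CAP and at 0.505, 0.528 and 0.493 times in air. Cd36, a thrombospondin receptor and scavenger receptor of macrophages, was at 11797 to 22012 in CAP and 11217 to 15102 in air. Cd47, the other receptor listed, was at 5649 to 6034 in CAP and 5402 to 6833 in air, and the low Thbs3 at 61.8 to 165 in CAP and 112 to 188 in air. None of the 5 tested genes of this group passed by edgeR. Stromal cells also make thrombospondin-1; the 10 stromal markers, none of them at 0 throughout, summed to 69031 to 138909 in CAP and 137240 to 206005 in air. In CAP replicate 2, where Thbs1 was highest, Cxcl12 and Col1a1 were at their lowest, at 5229 and 1487, and the contractile genes Acta2 and Tagln at their highest, at 10590.2 and 5897. Their part in the Thbs1 values was not tested.

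Plau, which encodes the plasminogen activator urokinase (uPA), was the least variable of the 9 genes in both groups. It had 3692, 3638 and 3607 normalized counts in CAP replicates 1 to 3, against 4144, 4028 and 3953 in air replicates 1 to 3. All CAP libraries were below all air libraries although the distance was small, with means of 3646 ± 43.1 in CAP and 4042 ± 96.3 in air (SD, n = 3 each). The coefficient of variation was 1.18% in CAP and 2.38% in air. The log2 difference was -0.15 (standard error 0.10), and between -0.16 and -0.13 without each library in turn. Per 1000 normalized counts of the macrophage markers, Plau was at 6.80, 8.18 and 7.17 in CAP and at 6.87, 6.29 and 6.31 in air. The groups overlapped on that scale, whose marker sum was itself lower in every CAP library than in any air library. The part of macrophages in the Plau values was not tested.

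Plaur encodes the uPA receptor, which holds urokinase at the cell surface. Its normalized counts were 871, 1848 and 709.6 in CAP replicates 1 to 3, against 691, 674 and 616 in air replicates 1 to 3. The CAP libraries were all above the air libraries, but CAP replicate 3 only narrowly, and CAP replicate 2 stood far above the rest. The means were 1143 ± 616 in CAP and 660.3 ± 39.3 in air (SD, n = 3 each). The log2 difference of 0.79 (standard error 0.33) was 0.25 without CAP replicate 2, and the largest value without 1 library was 1.04. Receptor and ligand had opposite signs, but both genes were chosen by their difference between CAP and air, so nothing is read from this. Plaur per kilobase was at 0.213, 0.459 and 0.178 times the level of Plau in CAP and at 0.151, 0.151 and 0.141 times in air.

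Plat, which encodes tissue plasminogen activator (tPA), the activator best known from endothelium, was low. It had 149, 42.9 and 303 normalized counts in CAP replicates 1 to 3 and 218, 161 and 284 in air replicates 1 to 3. The groups overlapped, and the lowest and the highest libraries were both CAP libraries. The log2 difference of -0.42 (standard error 0.54) was 0.02 without CAP replicate 2 and -1.19 without CAP replicate 3. Per kilobase, Plat was at 0.447% to 3.19% of the level of Plau in CAP and at 1.52% to 2.72% in air.

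F3, which encodes tissue factor, had the lowest level of the 9 genes. Its raw counts were 47, 57 and 12 in CAP and 20, 11 and 16 in air, or 44.7, 56.8 and 12.0 normalized counts in CAP replicates 1 to 3 against 20.3, 11.1 and 16.3 in air replicates 1 to 3. Both CAP replicates 1 and 2 were above all air libraries, while CAP replicate 3 was among them. The means were 37.8 ± 23.2 in CAP and 15.9 ± 4.63 in air (SD, n = 3 each). The log2 difference was 1.25 (standard error 0.63), with 0.84 without CAP replicate 2 and 1.67 without CAP replicate 3 as the lowest and highest values without 1 library.

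F7, the gene of the protease that tissue factor binds, had 2217, 1155 and 1312 normalized counts in CAP replicates 1 to 3 and 1406, 1349 and 1424 in air replicates 1 to 3. The CAP libraries lay on both sides of the nearly level air libraries, with a coefficient of variation of 36.7% in CAP and 2.83% in air. The log2 difference of 0.17 (standard error 0.23) was -0.18 without CAP replicate 1. F10, the gene of the protease that makes thrombin, had 910.2, 137 and 446 normalized counts in CAP and 448, 730.3 and 546 in air. Here too CAP held both the highest and the lowest library, and the log2 difference of -0.20 (standard error 0.52) was -0.98 without CAP replicate 1 and 0.24 without CAP replicate 2. It was also positive without air replicate 2. The genes are neighbours on chromosome 8, on the same strand and 1498 bases apart, and both were highest in CAP replicate 1 and lowest in CAP replicate 2.

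Liver transcripts stood out in that same library, CAP replicate 1. The fibrinogen genes Fgb and Fgg had 35.2 and 39.0 normalized counts there, the vitronectin gene Vtn had 20.9 and the plasminogen gene Plg had 8.56, and all 4 had 0 counts in the other 5 libraries, which allows up to 3 counts in each. The albumin gene Alb, looked up after the fibrinogen values were seen, was at 239.7 normalized counts in CAP replicate 1 and at most 3.05 in any other library. Of the other liver genes looked up with it, Apoa1 was at 30.4 in CAP replicate 1 against at most 6.04 elsewhere, Ttr at 10.5 and Serpina1e at 14.3 against 0, Apoh at 8.56 against at most 6.04, and Ahsg at 45.7 against at most 27.4. Trf, which macrophages also express, was not highest there, with 2788 normalized counts in CAP replicate 1 and up to 4459.6 in air. Their part in the F7 and F10 values of that library was not tested.

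Thbd encodes thrombomodulin, the surface receptor that turns thrombin from making fibrin to activating protein C. It had 3407, 6943 and 3887 normalized counts in CAP replicates 1 to 3 and 3507, 4108 and 4406 in air replicates 1 to 3. CAP replicate 2 was far above the other 5 libraries, whose values intermingled. The log2 difference of 0.24 (standard error 0.25) was -0.14 without CAP replicate 2. Thrombomodulin is known from endothelium as well as from monocytes and macrophages. The 10 endothelial markers, none of them at 0 throughout, summed to 2622, 2955 and 3301 normalized counts in CAP replicates 1 to 3 and to 2896, 2731 and 5105 in air replicates 1 to 3. In CAP replicate 2, Cdh5 and Pecam1 were at their lowest, at 58.8 and 31.9. Tie1, Emcn, Egfl7 and Cldn5 were also lowest there, at 28.9, 117, 77.7 and 0. Kdr alone was at its highest there, at 526. Most of that library's sum was Eng, at 1986. The part of endothelial cells in the Thbd values was not tested.

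**Figure D2:**
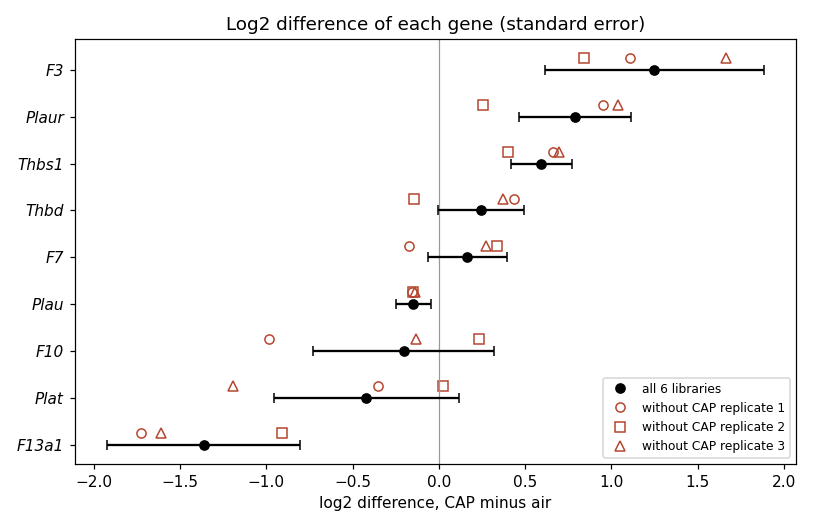
Log2 difference, CAP minus air, of each of the 9 genes. Filled circles with bars are the value from all 6 libraries and its standard error, and open symbols are the value with 1 CAP library left out. F13a1 lay at -1.36 and F3 at 1.25, and the signs of F7, F10, Thbd and Plat turned when 1 CAP library was left out.

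Across the 9 genes, CAP replicate 2 held the highest or the lowest value in 8, all but Plau, and the coefficient of variation was larger in CAP than in air in the same 8. Over all tested genes these shares were 63.4% and 63.4%. Leaving out 1 library turned the sign of 4 genes, F7, F10, Thbd and Plat, and of none of F3, F13a1, Plau, Plaur and Thbs1.

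Levels were compared between genes per kilobase of exon, with all annotated exons merged. In CAP the order was Thbs1 at 5357 ± 1141 normalized counts per kilobase, F13a1 at 2522 ± 1663, Plau at 1540.3 ± 18.2, Thbd at 1275 ± 515 and F7 at 840.0 ± 308, followed by Plaur at 437 ± 235, F10 at 182 ± 143, Plat at 26.5 ± 21.0 and F3 at 15.0 ± 9.18 (SD, n = 3 each). Of the 8 neighbouring pairs in this order, only Thbs1 and F13a1, and F10 and Plat, were apart in all CAP libraries. With the longest transcript of each, F10 and Plat overlapped, at 54.5 for F10 in CAP replicate 2 and 75.1 for Plat in CAP replicate 3. In air F13a1 was first at 6494 ± 2170 and Thbs1 next at 3549 ± 440, and below them stood Plau at 1708 ± 40.7, Thbd at 1076 ± 123, F7 at 749 ± 21.2, Plaur at 252 ± 15.0, F10 at 210 ± 52.5, Plat at 35.4 ± 9.82 and F3 at 6.29 ± 1.83 (SD, n = 3 each). Only Plaur and F10 overlapped among the neighbouring pairs in air. With merged exons F13a1 and Thbs1 thus stood in opposite order in the 2 groups. With the longest transcript of each, their order in CAP was mixed: F13a1 was at 6205, 1042 and 5657 per kilobase in CAP replicates 1 to 3 and Thbs1 at 5008, 6924 and 4757.

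Among 14786 tested genes with an annotated length, F13a1 ranked 502 per kilobase of merged exons in CAP and 161 in air, Thbs1 ranked 205 in CAP and 326 in air, and F3 ranked 11668 in CAP and 12657 in air. With the longest transcript the order of the 9 genes in air was the same, but F13a1 stood at 11073 per kilobase.

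**Figure D3:**
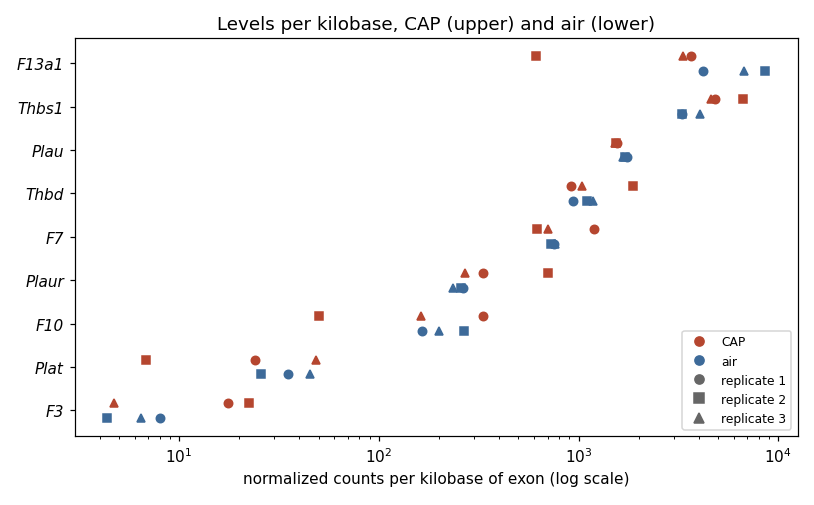
Normalized counts per kilobase of exon on a log axis for the 9 genes, ordered by their level in air, with CAP points in the upper and air points in the lower line of each gene. With exons merged as plotted, Thbs1 stood above F13a1 in CAP, at 5357 against 2522 per kilobase, and F13a1 above Thbs1 in air, at 6494 against 3549. With the longest transcripts F13a1 was above Thbs1 in CAP replicates 1 and 3.

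The genes most like each member over the 6 libraries, by Pearson correlation of log2(normalized count + 1) among 11827 other genes with a mean of at least 50, were Osbpl1a (r = 0.999), 4833420G17Rik (r = 0.999) and Kcne4 (r = 0.997) for F13a1. For Plaur they were Kpnb1 (r = 0.998), Tagln2 (r = 0.998) and Adam19 (r = 0.998). For Thbs1 they were Cep128, Bcl2l13 and Nup98, with r of 0.992, 0.990 and 0.983. For Plau they were Acvr1b, Rasgrp2 and Smim20, with r of 0.976, 0.974 and 0.972. Those of Plat were 5730409E04Rik, Dio3 and Phax, each with r = 0.997, those of Thbd were Ecpas, Nudt5 and Diexf, with r of 0.998, 0.988 and 0.987, those of F10 were Gramd1b, Phka2 and Dnm1, with r of 0.997, 0.993 and 0.992, and those of F7 were Vrk3, Gab3 and Dennd1a, with r of 0.968, 0.966 and 0.963. With only 6 libraries, 1 of which stands apart, high values are common: 529 genes reached an r over 0.95 with Plaur, 377 with Plat and 312 with F13a1, but 11 with Plau and 8 with F7. The points share their libraries and size factors, and the values are a description.

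In the mouse genome (GRCm38, the build of the files), F13a1 lies on chromosome 13 from 36867178 to 37050244 on the minus strand and Thbs1 on chromosome 2 from 118111876 to 118127133 on the plus strand. Thbd is also on chromosome 2, from 148404466 to 148408188 on the minus strand. F3 is on chromosome 3 from 121723537 to 121735048, Plaur on chromosome 7 from 24462484 to 24475968 and Plau on chromosome 14 from 20836660 to 20843385, each on the plus strand. On chromosome 8, all on the plus strand, are F7 from 13026034 to 13035809, F10 from 13037308 to 13056676 and Plat from 22757727 to 22782844. All 9 are protein-coding. Only F13a1 and Thbs1 overlap other annotated genes, 2 antisense genes and 1 lincRNA on the opposite strand that are not in the count table, with at most 74 and 208 shared exon bases.

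RefSeq promoter windows (GRCm38.p6, 250 bases before to 50 after a start site) were at hand for 5 of the 9 genes, F3, F7, F10, F13a1 and Plaur, with 6 windows in all because F13a1 had 2. They were searched on both strands for TGANTCA (bound by AP-1), GGGCGG (bound by Sp1), GAGGAAGT (bound by PU.1) and GGACTTTCC (bound by NF-kB). The upstream 250 bases of F3 (chr3:121723287-121723536, plus strand), Plaur (chr7:24462233-24462482, plus strand) and F13a1 (chr13:37050245-37050494, minus strand) are shown because these were the genes with the log2 differences farthest from 0. They run 5′ to 3′, and capitals mark matches to TGANTCA.
F3: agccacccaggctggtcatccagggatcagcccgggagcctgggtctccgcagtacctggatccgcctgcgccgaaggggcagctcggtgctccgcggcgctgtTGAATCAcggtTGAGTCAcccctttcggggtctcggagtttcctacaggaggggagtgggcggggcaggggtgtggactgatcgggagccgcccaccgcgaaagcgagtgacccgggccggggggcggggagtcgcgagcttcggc
Plaur: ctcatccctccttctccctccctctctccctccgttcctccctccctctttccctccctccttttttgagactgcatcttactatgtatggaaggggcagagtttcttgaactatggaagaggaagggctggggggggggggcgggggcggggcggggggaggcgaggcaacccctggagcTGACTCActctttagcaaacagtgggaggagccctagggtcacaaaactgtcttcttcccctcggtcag
F13a1: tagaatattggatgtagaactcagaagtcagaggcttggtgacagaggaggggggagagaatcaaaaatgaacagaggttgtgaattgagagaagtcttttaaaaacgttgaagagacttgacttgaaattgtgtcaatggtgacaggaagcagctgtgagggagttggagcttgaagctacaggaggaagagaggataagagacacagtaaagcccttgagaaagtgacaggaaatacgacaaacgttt

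F3 holds 2 matches to TGANTCA, which start 146 and 135 bases before the start site, and Plaur holds 1, which starts 69 bases before it. Such a match was in 7.81% of all 32851 promoter windows. GGGCGG was found 3 times in F3 and 3 times in Plaur, where its copies lie within a run of G, and it was in 35.7% of all windows. The F13a1 window shown holds none of the 4 motifs, nor do those of F7 and F10. The second F13a1 window, at a start site inside the gene, holds GGACTTTCC starting 128 bases before that site and GAGGAAGT after it. Those motifs were in 0.344% and 3.2% of all windows. A match is a run of letters and not a measured binding site.

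Beyond the 9 genes, 68 genes of clotting, fibrinolysis and their partners are described, of which 53 could be tested. Among these, 22 had a positive and 31 a negative log2 difference, with a median of -0.10 against -0.01 over all tested genes. By edgeR 0 of the 53 passed the adjusted threshold and by DESeq2, as run here, 0 passed. The study's own DESeq2 analysis listed F2r, which is among the 53, as upregulated. At an unadjusted p under 0.05, 4 were higher and 6 lower in CAP, where 10.6% of all tested genes reached that p in either direction. In 6 genes all CAP libraries were above the air libraries, as in 8.44% of all tested genes, and in 7 all were below, as in 8.46%.

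Among the fibrinolysis inhibitors, Serpinb2, the gene of an inhibitor of plasminogen activators that macrophages are known to make, was at 498, 2635 and 242 normalized counts in CAP replicates 1 to 3, against 138, 224 and 37.6 in air replicates 1 to 3. All CAP libraries were above all air libraries, and the log2 difference was 3.07 (standard error 0.91; adjusted p = 0.468 by edgeR), or 1.47 without CAP replicate 2. Serpinb6a, a broadly expressed intracellular serpin, was at 33123 to 34713 in CAP and 25857 to 34886 in air. Of the 6 tested inhibitors 3 were positive and 3 negative.

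**Figure D4:**
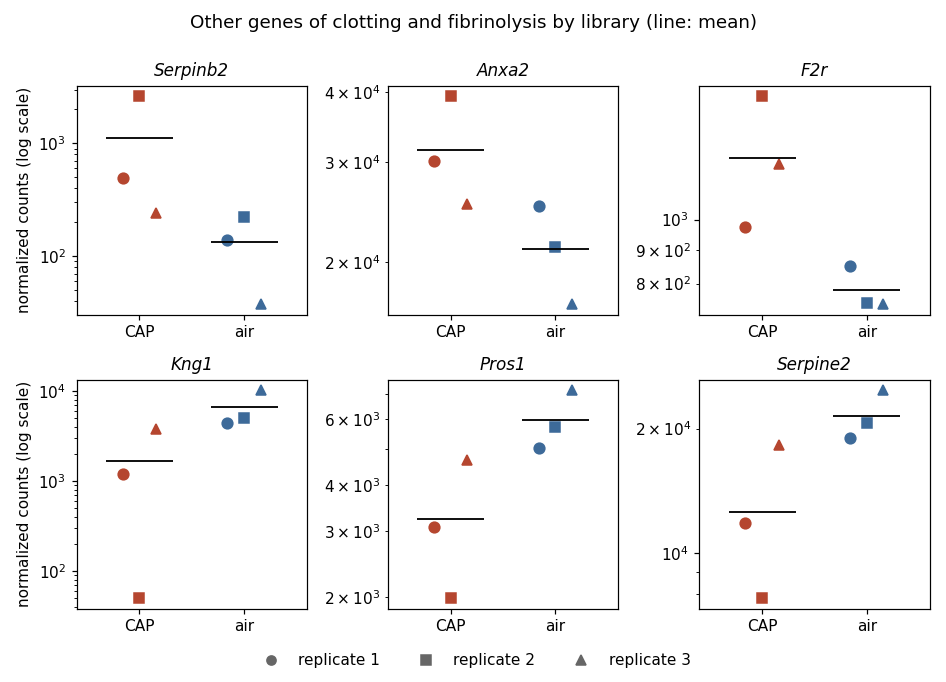
Normalized counts of 6 other genes of clotting and fibrinolysis on log axes, with the CAP libraries left and the air libraries right. Points are libraries and lines are group means. In Serpinb2, Anxa2 and F2r every CAP library was above every air library, and in Kng1, Pros1 and Serpine2 every CAP library was below. Of the 53 tested genes of the lists, 6 were above and 7 below in this way, and the rest overlapped. The shares over all tested genes were 8.44% and 8.46%. The 6 genes shown are therefore not typical of the 53.

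Plasminogen is made in the liver and is captured on cells by surface receptors. Anxa2 and S100a10 encode the 2 chains of one such receptor. Anxa2 was at 30143, 39327 and 25283 normalized counts in CAP and 25144, 21201 and 16823 in air (log2 difference 0.58, standard error 0.20; adjusted p = 0.468 by edgeR), whereas S100a10 was at 8411 to 8924 in CAP and 8126 to 9388 in air. Eno1, the glycolytic enzyme enolase that also binds plasminogen on the cell surface, was at 12215, 13938 and 9248 in CAP and 8852, 9172 and 7489.8 in air (0.47, standard error 0.17; adjusted p = 0.468 by edgeR). Itgb2, the chain shared by leukocyte integrins, was at 9889.6 to 14735 in CAP and 13795 to 15383 in air. Of the 6 tested genes of this group 3 were positive and 3 negative.

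Among partners of the uPA receptor, Lrp1, the endocytic receptor that clears uPA once it is bound by an inhibitor, was at 74533 to 92149.7 normalized counts in CAP and 71989 to 78310.5 in air. Its chaperone gene Lrpap1 was at 3829 to 4456 in CAP and 4258 to 4764 in air, and Mrc2, a collagen receptor that associates with the uPA receptor, at 6702 to 13192 in CAP and 9127 to 10617 in air. Vldlr, a relative of Lrp1, was at 777 to 1059.6 in CAP and 909.5 to 1064 in air. The groups overlapped in all 4, and 0 of the 5 tested partners passed by edgeR.

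Upstream in the cascade, Kng1, the gene of kininogen of the contact system, had 1178, 49.8 and 3738 normalized counts in CAP replicates 1 to 3, against 4391, 5025 and 10196 in air replicates 1 to 3. All CAP libraries were below all air libraries, and the log2 difference was -1.98 (standard error 0.96; adjusted p = 0.472 by edgeR), or -3.41 without CAP replicate 3 and -1.42 without CAP replicate 2. F5, the gene of the cofactor of factor X, was at 1824 to 3083 in CAP and 2271 to 2458 in air, with a log2 difference of 0.00 (standard error 0.19). F8 was at 27.9 to 78.9 in CAP and 49.8 to 122 in air. Vwf, which encodes the factor VIII carrier von Willebrand factor, was at 297 to 444 in CAP and 371 to 490.0 in air.

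The thrombin receptor gene F2r was at 974, 1541 and 1213 normalized counts in CAP and 851, 747 and 744 in air. All CAP libraries were above all air libraries, with a log2 difference of 0.67 (standard error 0.19, adjusted p = 0.468 by edgeR). DESeq2 as run here gave an adjusted p of 0.15, whereas the study listed F2r as upregulated by its own DESeq2 analysis. The other 3 listed genes of its receptor family had at most 66.9 in CAP and 61.4 in air.

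Among the anticoagulant genes, Pros1, the gene of protein S, the cofactor of activated protein C, was at 3079.7, 1982 and 4663 normalized counts in CAP and 5023, 5706 and 7188 in air (log2 difference -0.88, standard error 0.28; adjusted p = 0.468 by edgeR). Serpine2, the gene of protease nexin-1, which inhibits thrombin and urokinase, was at 11823, 7791 and 18213 in CAP and 18936, 20623 and 24776 in air (-0.77, standard error 0.27; adjusted p = 0.468 by edgeR). Tfpi, which encodes the inhibitor of the complex of tissue factor and factor VII, was at 666, 751 and 712 in CAP and 765, 972 and 951 in air (-0.34, standard error 0.15; adjusted p = 0.470 by edgeR). All CAP libraries were below all air libraries in these 3 genes, as in 8.46% of all tested genes. Anxa5, an annexin that covers exposed phosphatidylserine, was at 20626 to 22346 in CAP and 15990.1 to 20267 in air, all CAP libraries above. Of the 8 tested anticoagulant genes 4 were positive and 4 negative. All CAP libraries were above all air libraries in 2 of the 8, an arrangement that 8.44% of all tested genes shared.

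Gas6, a vitamin K dependent relative of protein S that binds the TAM receptors, was at 30289.5, 16777 and 30423 normalized counts in CAP and 35826, 32998 and 44081 in air (log2 difference -0.54, standard error 0.24; adjusted p = 0.468 by edgeR), and the log2 difference was -0.31 without CAP replicate 2. The enzymes that make factors VII and X able to bind calcium overlapped between the groups: the carboxylase gene Ggcx was at 744 to 1183 in CAP and 997 to 1350.1 in air, Vkorc1 at 483 to 811 in CAP and 799 to 933 in air, and Vkorc1l1 at 1259.6 to 1514 in CAP and 1104 to 1601 in air.

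Among the 7 substrates of factor XIII listed here, fibronectin was the most abundant by transcript. Fn1 was at 178673, 148386 and 193345 normalized counts in CAP and 194003, 171116 and 200810.2 in air, with a log2 difference of -0.12 (standard error 0.18, adjusted p = 0.803 by edgeR). Col1a1, a collagen gene, was at 6982, 1487 and 9319 in CAP and 6869, 6626 and 8828 in air, and Postn, the gene of periostin, at 364 to 586 in CAP and 358 to 655 in air. The other 3 tested substrates, Fgb, Fgg and Vtn, had counts in CAP replicate 1 alone, as given above, so no median is given for this list.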

How the data were processed

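Poly-A RNA of 6 cultures was made into stranded libraries. According to the study's methods and the submitters' processing notes, STAR 2.6 was used to align single-end reads to mm10, and the deposited table holds the raw counts per Ensembl gene that the authors made with HTSeq 0.10.0. Not given in the sources used here are the annotation release, the handling of reads with several matches and the strand setting. Groups and replicate numbers came from the sample titles. The library names number 4 of the samples otherwise (CAP replicates 1 to 3 are numbered 3 to 5 there, and air replicate 3 is numbered 4). No 2 libraries held identical counts.

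Counts were scaled by RLE size factors, genes totalling fewer than 10 counts were dropped, and the quasi-likelihood test of edgeR 4.0.16 (R 4.3.3) was fitted to CAP minus air without covariates, with Benjamini-Hochberg adjustment over all 14792 genes and a threshold of 0.05. Standard errors were derived from the F statistic, as the size of the log2 difference over its square root. The test was also run on simulated counts, but the share of changes it recovered is not given here. Alternatives were TMM, no filter, filterByExpr, DESeq2 1.42.0, limma-voom (limma 3.58.1), a replicate block, leaving out each library in turn, pseudocounts of 0.5 and 5 in place of 1 and, for lengths in air, the longest transcript. DESeq2 without CAP replicate 2, the older form of edgeR's test, the longest transcript in CAP and the liver genes beside F7 and F10 were added after the data were seen. Lengths and positions came from GENCODE vM21 and promoters from RefSeq.

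The 9 genes, the lists and the tests were chosen with earlier results of these data known. Named besides the 9 genes were up to the 4 genes of highest mean (at least 50 normalized counts) per list, any list gene past the threshold, and the 3 most correlated genes per member with a mean of at least 50. Pf4, Itga2b, Fcgr1, Cdh5, Pecam1, Kdr, Cxcl12, Acta2, Tagln, F13b, Fgb, Fgg, Vtn and Plg were named after their values were seen. The same holds for Lyz2, Tie1, Emcn, Egfl7, Cldn5 and Eng. Protein sequences were not analysed here. The result of 1 listed gene is not reported here, and the counts of the lists leave it out. The mice of a group are the replicates, with a biological coefficient of variation of 26.3% between libraries, and floors cover counting error only.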

Additional observations from a re-analysis of the deposited data

How the results depend on the processing

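The count of 0 genes past the threshold was the same with TMM, no filter, filterByExpr, limma-voom, the older form of edgeR's test and with each library left out (0 to 0), but it was 24 with DESeq2 and 51 with DESeq2 without CAP replicate 2. None of the 53 other pathway genes passed in any of these fits. Of the 9 genes, F3, F13a1, Plau, Plaur and Thbs1 kept their sign in all 14 alternatives. F7 turned negative without CAP replicate 1, at -0.18. F10 turned positive without CAP replicate 2 in both edgeR and DESeq2, at 0.24, and without air replicate 2. Thbd and Plat turned without CAP replicate 2, to -0.14 and 0.02. Replicate numbers in the titles in part differ from those in the library names. CAP and air libraries of the same number had correlations of deviations of -0.02, 0.09 and 0.17, and those of unlike number -0.20 to 0.11. Deviations from a mean of 3 libraries are tied to one another, so these values cannot decide whether the samples were paired. The replicate block gave 0 genes past the threshold. The protein comparison was not run. The causes of these differences were not tested.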
